A study of Mus musculus with 6 samples.

Results

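Fatty acid oxidation genes encode the enzymes and carriers that break fatty acids down in mitochondria and peroxisomes. The 33 genes described here were chosen with earlier results of these data known. Their listed roles were carnitine shuttle, acyl-CoA dehydrogenases, the later steps of the mitochondrial cycle, double bond enzymes, electron transfer, peroxisomal oxidation and acyl-CoA thioesterases. The genes are 33 of the 36144 gene symbols measured, and all 33 passed the filter on low counts that left 16069 genes to test.

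RNA was sequenced from whole inguinal white adipose tissue (iWAT) of 10-week-old, random-fed female mice on the C57BL6/J background, without lymph nodes and with both depots of a mouse pooled. There were 3 control libraries (Cebpa_fl/fl, floxed *Cebpa* alleles and no Cre) and 3 knockout libraries (Cebpa_ASKO, the same floxed alleles with the AdipoQ-Cre transgene). AdipoQ-Cre acts where adiponectin is made, mainly in adipocytes past the start of differentiation. Cells of the same tissue that do not make adiponectin, such as those of vessels and the immune system, should keep *Cebpa*. The paper describes committed preadipocytes that already express *Adipoq*, so some progenitors may lose *Cebpa* too. Its loss by cell type was not measured here. The study asked how C/EBPα, a transcription factor of adipocyte differentiation, bears on where white fat forms, and this comparison addresses the RNA of the inguinal depot when adipocytes lose it late in differentiation. In whole tissue, fewer cells of a type and less RNA per cell cannot be told apart.

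In mitochondria, long-chain fatty acids enter through the carnitine shuttle and are shortened in a cycle of dehydrogenation, hydration, a second dehydrogenation and thiolysis, whose electrons pass to the respiratory chain. Peroxisomes take in very long-chain and branched acids through ABC transporters and run a parallel cycle with their own oxidases and thiolases. White fat mostly stores and releases fatty acids, whereas brown and beige adipocytes oxidize them to make heat.

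*Cebpa* itself was measured at 448, 465 and 498 CPM (read counts as a share of the library, scaled by the TMM method) in the control libraries and at 37.7, 45.8 and 37.2 CPM in the Cebpa_ASKO libraries. The Cebpa_ASKO mean was 8.55% of the control mean. The libraries held between 33141769 and 49477671 estimated counts. Of 13 adipocyte markers, 7 fell in Cebpa_ASKO iWAT by edgeR, where 3.84% of all genes tested did. The 7 included *Retn*, *Adipoq* and *Cidec*. The count was 11 by DESeq2, 4 without Cebpa_ASKO 2 and 3 with the replicate number as a block. The summed adipocyte CPM was 24150, 27558 and 25439 in controls and 13190, 10779 and 10018 in Cebpa_ASKO.

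Among the oxidation genes, 4 fell and 1 rose in Cebpa_ASKO iWAT (edgeR's quasi-likelihood test, Benjamini-Hochberg adjusted p below 0.05). The 4 that fell were *Abcd2*, *Acaa1b* and *Pecr*, all peroxisomal, and the mitochondrial *Acadsb*. The 1 that rose was *Acaa2*, the last enzyme of the mitochondrial cycle. These 5 are 15.2% of the genes listed. The share called over all genes tested was 5.23%, with 3.84% lower and 1.39% higher. DESeq2, the other count test, called 10.7% of the genes it tested and 9 of the 33, with *Acaa1a*, *Echs1*, *Decr2* and *Hadhb* added. It put 37.3% of its calls on the higher side, where edgeR put 26.5%. The median log2 fold change was 0.02 over the 33 and 0.02 over all genes tested. In 8 of the 33 every Cebpa_ASKO library lay below every control library, in 4 every one lay above, and in 21 the genotypes overlapped. Over all genes tested, 26.1% did not overlap, 13.2% lower and 12.9% higher.

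**Figure D1:**
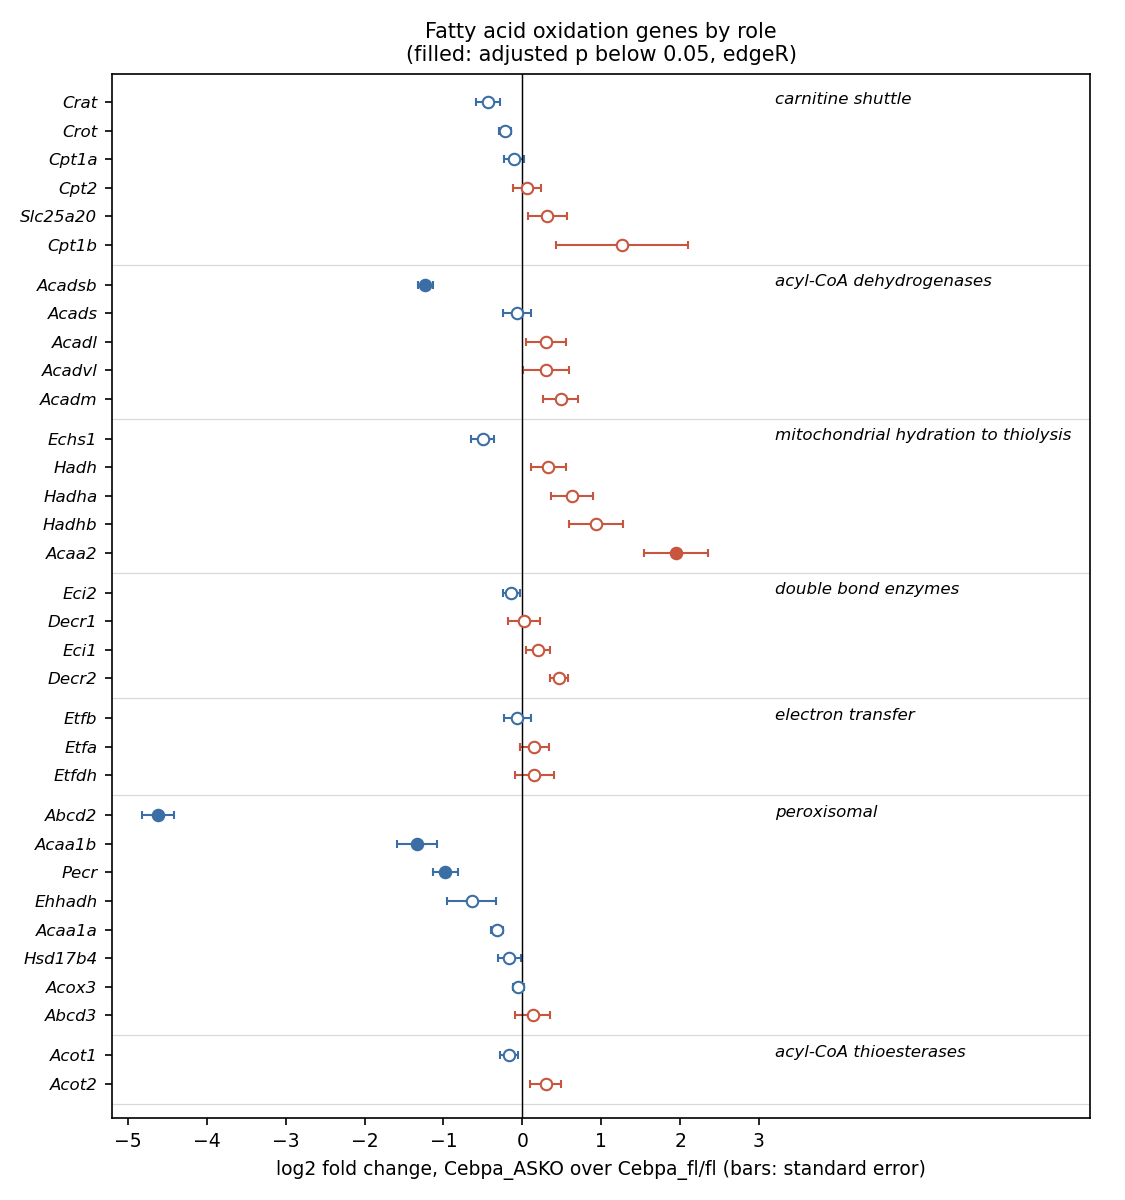
Log2 fold change of Cebpa_ASKO over Cebpa_fl/fl for the 33 fatty acid oxidation genes, grouped by role, with bars for the standard error and filled points for an adjusted p below 0.05. *Abcd2* stands at -4.62 and *Acaa2* at 1.95, while most mitochondrial genes lie close to 0.

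The bases before the annotated start of a gene are shown for the 3 called genes whose start has an entry in the promoter table, since the deleted gene encodes a DNA-binding protein. The sequences are from RefSeq (GRCm38.p6), 5′ to 3′ on the gene's strand, and stop at the start or at the nearest annotated exon. Capitals mark a match to the C/EBP motif TTGCNNAA on either strand. The *Acadsb* bases are chr7:131410522-131410600 on the plus strand, the *Pecr* bases chr1:72284322-72284368 on the minus strand, and the *Acaa1b* bases chr9:119157094-119157343 on the minus strand.
Acadsb: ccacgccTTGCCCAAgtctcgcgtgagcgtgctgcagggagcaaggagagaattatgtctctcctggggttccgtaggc
Pecr: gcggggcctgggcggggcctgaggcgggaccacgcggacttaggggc
Acaa1b: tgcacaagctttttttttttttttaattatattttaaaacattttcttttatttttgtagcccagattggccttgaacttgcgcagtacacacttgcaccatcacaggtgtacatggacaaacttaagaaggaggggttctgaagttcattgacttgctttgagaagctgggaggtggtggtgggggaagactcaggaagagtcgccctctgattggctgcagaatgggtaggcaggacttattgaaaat

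The windows searched ran from 250 bases before to 50 bases after the start, and 27 of the 33 genes had one, in 28 windows. The C/EBP motif was in 5 of the 28 windows, those of *Acadsb* (position -72 from the start), *Abcd3*, *Acaa1a*, *Acads* and *Acot1*, and in 10.8% of all 32851 windows. Of these 5 genes only *Acadsb* was called. The PPAR-type DR1 motif, AGGNCA repeated in the same direction with 1 base between the copies (0.381% of all windows), its stricter form from AGGTCA copies (0.0396%) and the ERR motif TCAAGGTCA (0.423%) were in none of the 28 windows on either strand. *Abcd2* and *Acaa2* had no window in the table.

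*Abcd2* encodes a peroxisomal ABC transporter that brings very long-chain acyl-CoA into the organelle (chr15:91145871-91191799, minus strand, GRCm38). It was at 224, 331 and 341 CPM in the control libraries and at 12.4, 12.9 and 11.2 CPM in the Cebpa_ASKO libraries. The Cebpa_ASKO values were close together and far below every control, at 4.07% of the control mean. The log2 fold change was -4.62 (SE 0.20, adjusted p 0.000291, edgeR), and the call held in 17 of 18 settings. *Abcd3*, the transporter for branched and dicarboxylic acids, overlapped between the genotypes at 94.8 to 170.0 CPM in controls and 133 to 170.4 CPM in Cebpa_ASKO. On TPM, a share corrected for transcript length, *Abcd2* made up 48.4%, 70.8% and 60.9% of the *Abcd2* and *Abcd3* sum in controls and 4.39%, 6.76% and 5.65% in Cebpa_ASKO. *Abcd2* went from rank 22 of the 33 on mean TPM in controls to rank 33.

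*Acaa1b* encodes a peroxisomal thiolase, which cuts acetyl-CoA off at the end of the cycle (chr9:119148023-119157093, minus strand). It was at 33.3, 28.5 and 41.0 CPM in controls and at 15.5, 16.6 and 8.82 CPM in Cebpa_ASKO. The genotypes did not overlap, and the log2 fold change was -1.33 (SE 0.26, adjusted p 0.0351, edgeR). *Acaa1b* was called in 10 of 18 settings. Without control 1, control 3, Cebpa_ASKO 1 or Cebpa_ASKO 2 the change lay between -1.19 and -1.52, and the adjusted p, between 0.0704 and 0.117, no longer passed. Its near-identical neighbour *Acaa1a* shares reads with it, so the split between them is uncertain. *Acaa1a* was at 153, 151 and 156 CPM against 124, 121 and 125 CPM, a log2 fold change of -0.32 (SE 0.08, adjusted p 0.0691, edgeR) with no overlap. Summed, the pair stood at 127, 137 and 140.4 TPM in controls and at 93.0, 103 and 101 TPM in Cebpa_ASKO, again without overlap.

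*Pecr* encodes the peroxisomal trans-2-enoyl-CoA reductase (chr1:72259167-72284314, minus strand). It was at 25.8, 19.4 and 28.1 CPM in controls and at 13.4, 11.4 and 12.5 CPM in Cebpa_ASKO. The lowest control lay above the highest Cebpa_ASKO library, and the log2 fold change was -0.98 (SE 0.16, adjusted p 0.0188, edgeR). *Pecr* was called in 12 of 18 settings. Leaving out control 1, control 3, Cebpa_ASKO 1 or Cebpa_ASKO 2 gave changes between -0.86 and -1.03 with adjusted p between 0.0560 and 0.0808.

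None of the other peroxisomal genes was called by edgeR, and DESeq2 called *Acaa1a* and *Decr2* besides. *Ehhadh*, the bifunctional enzyme of peroxisomal oxidation, was at 58.0, 43.6 and 56.4 CPM in controls and at 29.6, 21.2 and 50.5 CPM in Cebpa_ASKO. Cebpa_ASKO 3 lay among the controls, and the log2 fold change was -0.64 (SE 0.31, adjusted p 0.318, edgeR). Without Cebpa_ASKO 3 it was -1.07 with an adjusted p of 0.0443. *Hsd17b4*, the second bifunctional enzyme, ran from 192 to 234 CPM in controls and from 161 to 217 CPM in Cebpa_ASKO. *Acox3*, an acyl-CoA oxidase, was nearly level at 57.2 to 60.5 CPM and 55.6 to 57.4 CPM. *Crot*, which makes carnitine esters of the shortened acids for export, was at 53.2 to 57.7 CPM in controls and 45.6 to 48.8 CPM in Cebpa_ASKO, without overlap but not called (log2 fold change -0.22, SE 0.07, adjusted p 0.163, edgeR). *Decr2*, a peroxisomal 2,4-dienoyl-CoA reductase, went the other way, from 31.5, 25.4 and 31.3 CPM to 45.1, 38.1 and 38.6 CPM. Its genotypes did not overlap, and its log2 fold change of 0.46 (SE 0.12) had an adjusted p of 0.0858 by edgeR.

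*Acadsb* encodes the short/branched-chain acyl-CoA dehydrogenase, which also acts in isoleucine breakdown (chr7:131410601-131448944, plus strand). It was at 239.9, 254 and 278 CPM in controls and at 113, 109 and 107 CPM in Cebpa_ASKO. Both groups were narrow and well apart, with a log2 fold change of -1.23 (SE 0.10, adjusted p 0.00123, edgeR) and a call in 17 of 18 settings. *Acadsb* overlaps *Fgfr2* on the other strand (34.0 to 120 TPM over the libraries), as *Acaa1b* does *Dlec1* (0.503 to 1.69 TPM), and how the counting used strand is not given in the sources used here.

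The other 4 acyl-CoA dehydrogenases overlapped between the genotypes. *Acadvl*, for very long chains, ran from 239.7 to 534 CPM in controls and from 415 to 543 CPM in Cebpa_ASKO. *Acadl*, for long chains, ran from 333 to 637 CPM and from 497 to 679.8 CPM. *Acadm*, for medium chains, ran from 394 to 657 CPM and from 614 to 862 CPM, with a log2 fold change of 0.49 (SE 0.22, adjusted p 0.289, edgeR). *Acads*, for short chains, ran from 128 to 183 CPM and from 122 to 174 CPM. *Acadsb* was thus the only one of the 5 with a change past the test.

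*Acaa2* encodes the mitochondrial 3-ketoacyl-CoA thiolase. It was at 375, 137 and 199.9 CPM in controls and at 1182, 916 and 647 CPM in Cebpa_ASKO. Every Cebpa_ASKO library lay above every control, the mean was 3.86-fold that of controls, and the log2 fold change was 1.95 (SE 0.41, adjusted p 0.0460, edgeR). The call held in 10 of 18 settings. Among the losses were the fits without control 2, control 3 or any 1 Cebpa_ASKO library. There the change lay between 1.65 and 2.13 and the adjusted p between 0.0584 and 0.161 (edgeR). On mean TPM *Acaa2* went from rank 10 of the 33 to rank 2, and from 29.1%, 23.4% and 22.5% of the TPM of the 4 thiolase genes *Acaa2*, *Hadhb*, *Acaa1a* and *Acaa1b* to 46.6%, 45.6% and 40.8%.

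*Hadha* and *Hadhb* encode the 2 subunits of the mitochondrial trifunctional protein and start head to head on chromosome 5. *Hadhb*, the thiolase subunit, was at 1051, 417 and 736 CPM in controls and at 1708, 1360.1 and 1150.0 CPM in Cebpa_ASKO, with no overlap. The log2 fold change was 0.94 (SE 0.34, adjusted p 0.195, edgeR). *Hadha*, the hydratase and dehydrogenase subunit, was at 632, 312 and 508 CPM against 876, 727 and 642 CPM, also without overlap, with a log2 fold change of 0.63 (SE 0.27, adjusted p 0.261, edgeR). The TPM of *Hadhb* was 2.30, 1.85 and 1.91 times that of *Hadha* in controls and 2.75, 2.63 and 2.47 times in Cebpa_ASKO.

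*Echs1*, the short-chain enoyl-CoA hydratase of the same stretch of the cycle, lay lower at 411, 314 and 389 CPM in controls and 297, 245 and 244 CPM in Cebpa_ASKO. The log2 fold change was -0.50 (SE 0.15, adjusted p 0.117, edgeR), and the gene was called by DESeq2 and by edgeR without control 2. *Hadh*, the short- and medium-chain hydroxyacyl-CoA dehydrogenase, overlapped at 354 to 552 CPM and 464 to 703 CPM. So of the 5 genes from hydration to thiolysis, 3 lay above all controls, 1 lay below and 1 overlapped, and only *Acaa2* passed the test. Over all genes tested, 12.9% lay above all controls and 13.2% below.

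**Figure D2:**
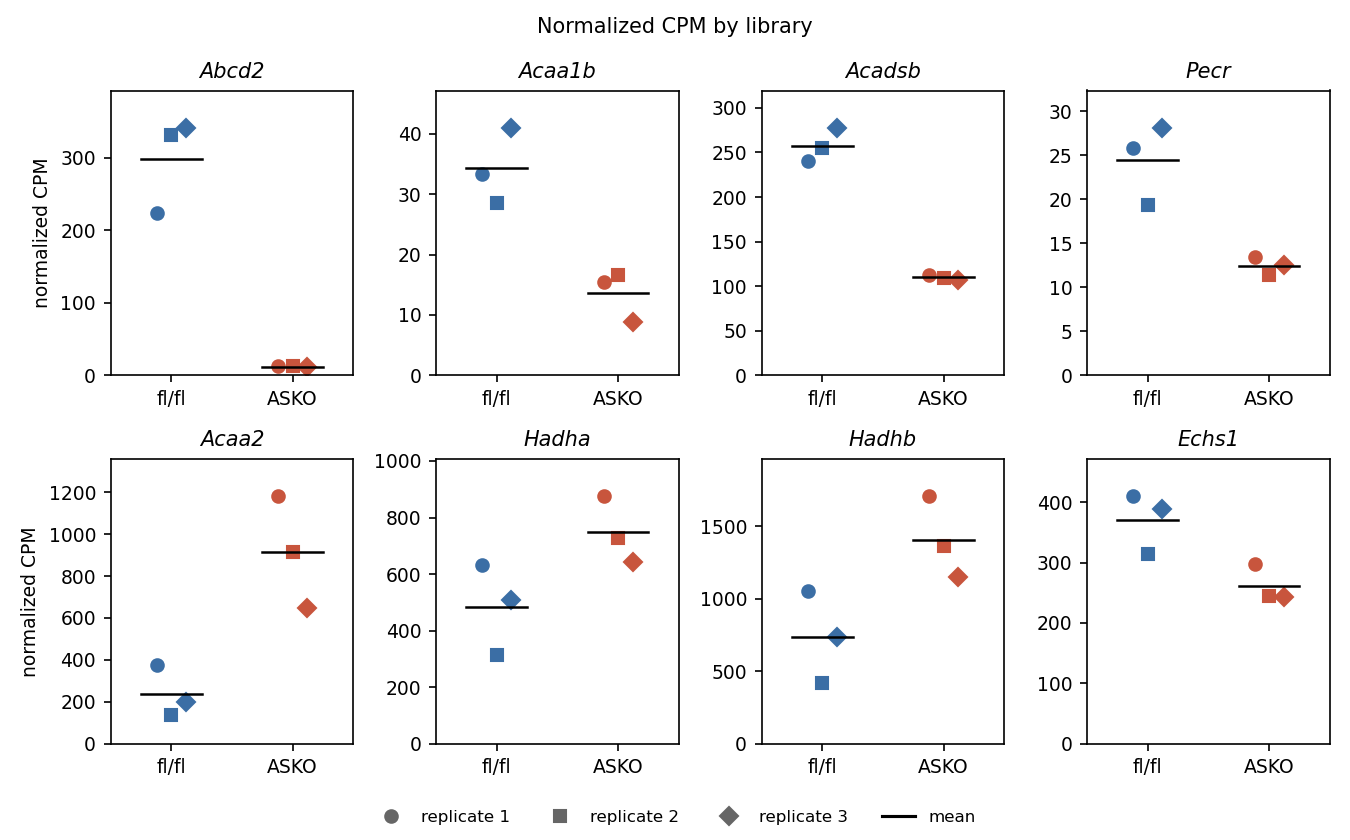
Normalized CPM of the 5 called genes and of *Hadha*, *Hadhb* and *Echs1* in each library, with the mean of each genotype as a bar and the replicate number as the marker. *Abcd2* is at 11.2 to 12.9 CPM in Cebpa_ASKO, and control 2 is the lowest control for *Acaa2*, *Hadha* and *Hadhb*.

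In the carnitine shuttle, none of 6 genes was called by edgeR (2 at an unadjusted p under 0.05) or by DESeq2. *Cpt1a* and *Cpt1b* encode the liver and muscle forms of the entry enzyme. *Cpt1b*, the form of muscle and brown fat, was at 98.9, 6.61 and 27.3 CPM in controls and at 139, 107 and 72.7 CPM in Cebpa_ASKO. The controls spread widely and control 1 lay among the Cebpa_ASKO libraries, so the log2 fold change of 1.26 had an SE of 0.84 (adjusted p 0.480, edgeR). *Cpt1b* shares sequence with the read-through gene *Gm44502*, which was at 0.627 TPM at most. *Cpt1a* was at 58.1 to 80.7 CPM and 60.7 to 65.1 CPM. *Cpt1b* made up 73.1%, 11.3% and 38.5% of the TPM of both forms in controls and 77.9%, 71.8% and 66.9% in Cebpa_ASKO. *Cpt2*, the inner membrane enzyme, overlapped at 148 to 208 CPM and 158 to 222 CPM, as did the carrier *Slc25a20* at 83.4 to 149.6 CPM and 111 to 166 CPM. *Crat*, carnitine acetyltransferase, was at 376, 287 and 364 CPM in controls and 283, 260.3 and 217 CPM in Cebpa_ASKO, below all controls but not called (log2 fold change -0.43, SE 0.16, adjusted p 0.186, edgeR).

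Brown and beige markers were, like *Cpt1b*, lowest in control 2 and highest among controls in control 1. *Ucp1*, the uncoupling protein of brown fat, was at 733, 19.4 and 112 CPM in controls and 248, 224 and 181 CPM in Cebpa_ASKO. The 10 brown and beige markers, which include *Cpt1b*, summed to 1451, 172 and 446 CPM in controls and to 1628, 1257 and 862 CPM in Cebpa_ASKO, and none of the 10 was called by edgeR (3 at an unadjusted p under 0.05), while DESeq2 called 1 lower. The list did not lie one way. *Cidea*, a lipid droplet protein, was at 248, 33.8 and 119 CPM in controls and 732, 524 and 343 CPM in Cebpa_ASKO (log2 fold change 2.00, SE 0.68), and *Cox7a1* (1.90) and *Otop1* (1.47) also lay above all controls. *Elovl3*, a fatty acid elongase, lay below all controls (log2 fold change -3.87, SE 1.11). These 4 were named after their values were seen. With the *Ucp1* level as a covariate, a choice made after seeing the data, *Cpt1b* had a log2 fold change of 1.32 with an adjusted p of 0.0163 (edgeR) and *Acaa2* one of 1.80 with an adjusted p of 0.0143, while *Acaa1b* no longer passed (adjusted p 0.0533). In that fit 4 of the 10 brown and beige markers were called higher and 1 lower. The 10 include *Cpt1b* and also *Ucp1*, whose own level that fit holds fixed.

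**Figure D3:**
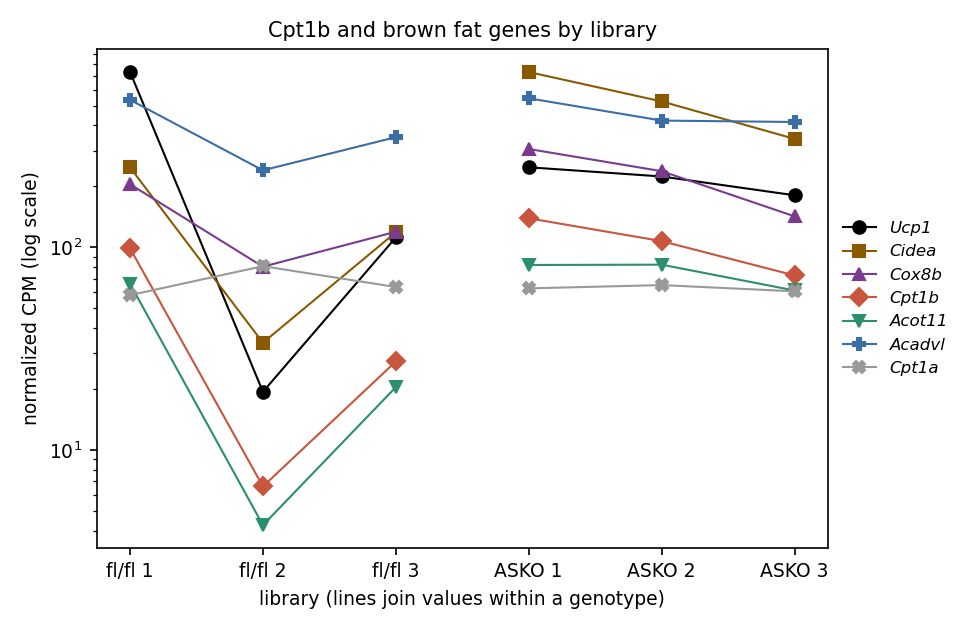
Normalized CPM on a log axis of *Cpt1b*, *Cpt1a*, *Acadvl*, the thioesterase *Acot11* and the brown fat genes *Ucp1*, *Cidea* and *Cox8b* in each library, with lines joining the libraries of a genotype. Control 2 is lowest for all but *Cpt1a*, and *Cpt1b* spans 6.61 to 98.9 CPM among controls.

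The controls also differed over the whole list. Control 2 was the lowest control in 30 of the 33 genes, where it was lowest in 37.2% of all genes tested, and control 1 was the highest in 24. Among the Cebpa_ASKO libraries, number 1 was highest in 25 and number 3 lowest in 28. Control 2 had the highest fibroblast and progenitor sum (14178 CPM, against 8290 and 8134 CPM in the other controls) and the highest macrophage sum (3259 CPM, against 1777 and 1200.2 CPM). The Cebpa_ASKO sums were 9970, 9640.0 and 11934 CPM for fibroblasts and 1961, 1988 and 2706 CPM for macrophages, and edgeR and DESeq2 called no gene of either list of 10 (0 at an unadjusted p under 0.05 by edgeR). Without control 2, 1 fibroblast gene was called higher. The part of these cells in the differences was not tested.

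Of 22 skeletal muscle markers, 15 rose in Cebpa_ASKO by edgeR and 17 by DESeq2. Over all genes tested, 1.39% rose by edgeR and 676 of 16964 by DESeq2. The count of muscle markers was 1 without control 1, control 3 or Cebpa_ASKO 1 and 1 by limma without a filter. It was 10 with the block or without control 2 or Cebpa_ASKO 2, and 7 with the *Ucp1* covariate. The median log2 fold change was 2.02. They took 0.0737%, 0.107% and 0.0864% of the counts in controls and 0.340%, 0.696% and 0.251% in Cebpa_ASKO. With the muscle share as a covariate edgeR called 0 of 16069 genes, with 947 at an unadjusted p under 0.05. Without the covariate edgeR called 840, with 3185 at an unadjusted p under 0.05. DESeq2 was not run with it. That share separates the genotypes, and its part in the results cannot be told apart from genotype.

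Of the remaining marker lists, 5 of 9 mammary epithelial markers tested lay above all controls, where 12.9% of all genes tested did. None was called by edgeR (7 at an unadjusted p under 0.05), and DESeq2 called 4 higher. The sum over all 10 mammary markers listed ran from 648 to 1304 CPM in controls and from 1713 to 1860.2 CPM in Cebpa_ASKO. For lymphocytes none of 8 tested was called by edgeR (5 at an unadjusted p under 0.05), while DESeq2 called 2 lower of the 6 it tested. The lymphocyte sum was 622 CPM in control 1 and 101 to 172 CPM in the other libraries. Over all genes tested, 3.84% fell by edgeR. Of 8 endothelial markers 2 fell (*Cldn5* and *Emcn*), 3 by DESeq2, 1 without Cebpa_ASKO 2 and 0 without any 1 control or without Cebpa_ASKO 1. Of 5 tested hepatocyte genes 2 fell (*Serpina1a* and *Alb*), 3 by DESeq2, 0 without control 1 or control 3, and 1 without control 2, Cebpa_ASKO 1 or Cebpa_ASKO 2. No marker of any list was at 0 in all 6 libraries. The part of these cells in the oxidation genes was not tested.

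The double bond enzymes and electron transfer genes overlapped between the genotypes, apart from *Decr2*. *Eci1*, a mitochondrial enoyl-CoA isomerase, was at 130.0 to 180.2 CPM in controls and 160.1 to 198 CPM in Cebpa_ASKO. *Eci2*, found in both organelles, was at 99.1 to 115 CPM and 89.2 to 110.0 CPM, and *Decr1*, the mitochondrial dienoyl-CoA reductase, at 238 to 361 CPM and 249 to 368 CPM. The electron transfer flavoprotein subunits overlapped, *Etfa* at 272 to 374 CPM and 295 to 432 CPM and *Etfb* at 315 to 409.6 CPM and 288 to 409.4 CPM. *Etfdh*, which hands the electrons to ubiquinone, was at 111 to 226 CPM and 165 to 208 CPM. On mean TPM *Etfb* was the highest of the 33 in controls at 618, and *Hadhb* was highest in Cebpa_ASKO at 935.

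The thioesterases *Acot1* and *Acot2*, which release free acids from acyl-CoA, are close copies and share reads. *Acot1* was at 21.1 to 28.1 CPM in controls and 21.1 to 22.6 CPM in Cebpa_ASKO, and *Acot2* at 17.7 to 27.5 CPM and 23.1 to 32.7 CPM. Their summed TPM was 44.2, 38.1 and 47.1 against 47.0, 52.6 and 44.1, so neither gene nor sum separated the genotypes.

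Summed by compartment, mitochondrial genes lay higher and peroxisomal genes lower in Cebpa_ASKO. The 19 mitochondrial genes summed to 5074, 3428 and 4321 TPM in controls and to 6501, 6010.1 and 5271 TPM in Cebpa_ASKO, all above the controls. The sums overlapped on the CPM scale, at 4267 to 7335 CPM in controls and 6465 to 9344 CPM in Cebpa_ASKO. Without *Acaa2* and *Hadhb* they overlapped on TPM too, at 3018 to 4127 and 3817 to 4466. The 10 peroxisomal genes summed to 462, 474 and 528 TPM in controls and to 349, 372 and 364 TPM in Cebpa_ASKO, all below the controls. On the CPM scale they did not overlap either, at 996 to 1153 CPM and 641 to 731 CPM. Leaving out *Abcd2*, the peroxisomal sum was 384 to 441 TPM in controls and 347 to 367 TPM in Cebpa_ASKO. The peroxisomal sum was 0.0910, 0.138 and 0.122 of the mitochondrial sum in controls and 0.0537, 0.0619 and 0.0690 in Cebpa_ASKO. The other 4 genes, *Crat*, *Eci2*, *Acot1* and *Acot2*, were put in neither sum.

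**Figure D4:**
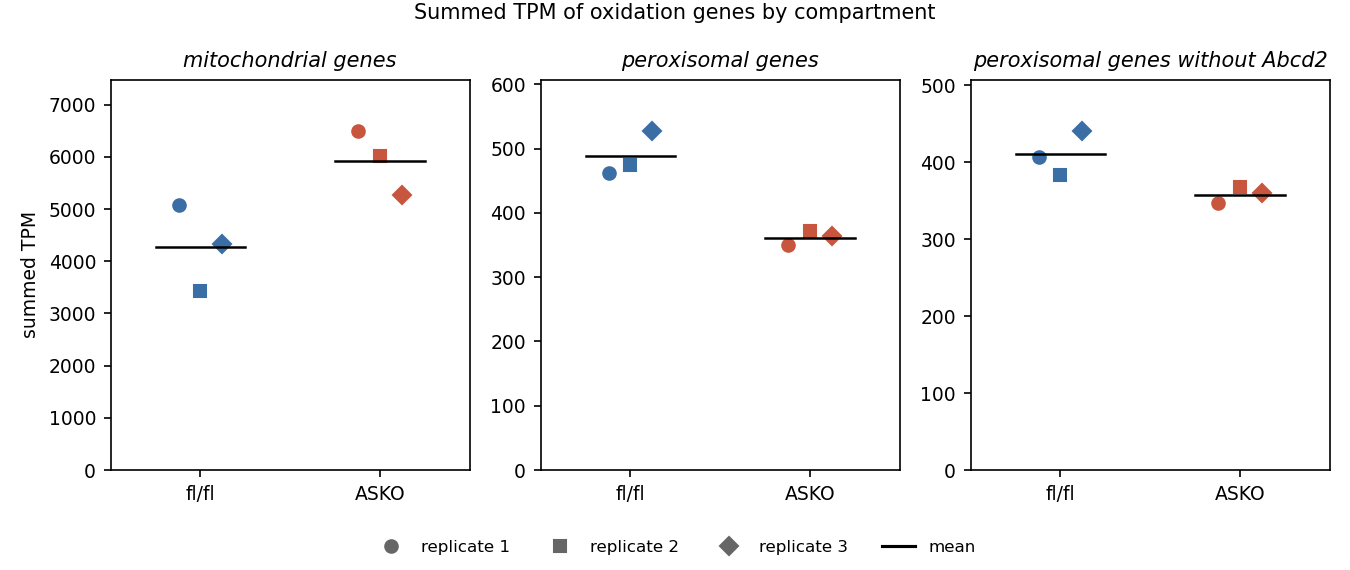
Summed TPM in each library of the 19 mitochondrial genes, of the 10 peroxisomal genes, and of the peroxisomal genes without *Abcd2*, with the mean of each genotype as a bar. The mitochondrial sums lie higher in Cebpa_ASKO (5271 to 6501) and the peroxisomal sums lower (349 to 372).

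Of 20 genes for peroxisome biogenesis, membrane channels and catalase, 6 fell by edgeR, where 3.84% of all genes tested did. The count was 11 by DESeq2, 3 with the block or by limma without a filter, and 4 to 9 with 1 library left out, the lowest without Cebpa_ASKO 1 and the highest without control 2. Of the 20, 13 lay below all controls, where 13.2% of all genes tested did, 6 overlapped and *Pex26* lay above. The median log2 fold change was -0.46. *Pxmp2*, a channel of the peroxisomal membrane, was at 34.9, 34.7 and 40.1 CPM in controls and at 6.78, 4.95 and 7.54 CPM in Cebpa_ASKO (log2 fold change -2.51, SE 0.17, adjusted p 0.000801, edgeR). *Pex16*, which brings membrane proteins to the organelle, was at 111, 81.3 and 123 CPM against 27.7, 27.3 and 25.8 CPM (log2 fold change -1.96, SE 0.16, adjusted p 0.00147, edgeR). *Cat*, catalase, which breaks down the hydrogen peroxide made by the oxidases, was at 697, 839 and 777 CPM against 401, 401 and 328 CPM (log2 fold change -1.03). The other 3 that fell were *Pxmp4* (log2 fold change -0.92), *Pex11a* (-0.85) and *Pex6* (-0.59).

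**Figure D5:**
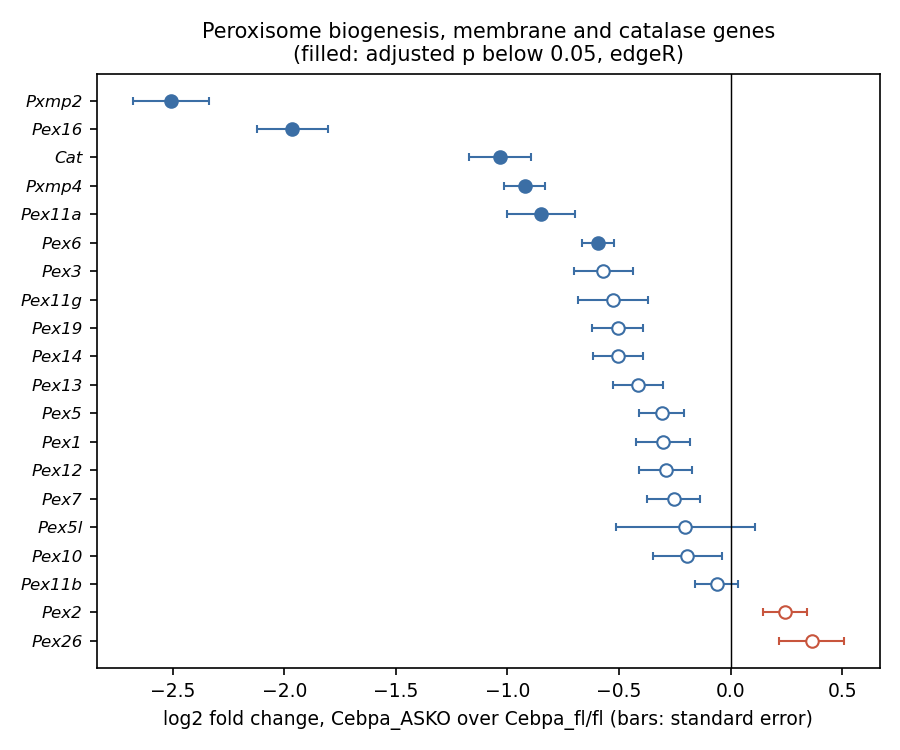
Log2 fold change of Cebpa_ASKO over Cebpa_fl/fl for 20 peroxisome genes, with bars for the standard error and filled points for an adjusted p below 0.05. All but *Pex2* and *Pex26* lie below 0, and *Pxmp2* is lowest at -2.51.

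Of 33 further genes of fatty acid oxidation, 30 were tested and 8 fell by edgeR, where 3.84% of all genes tested did. The count was 9 by DESeq2, 4 with the block and without control 1, Cebpa_ASKO 1 or Cebpa_ASKO 2, 5 without control 3 or Cebpa_ASKO 3, and 12 without control 2. The median log2 fold change was -0.14. The largest fall was that of *Eci3*, a peroxisomal enoyl-CoA isomerase with reads partly shared with *Eci2*, from 25.1, 21.8 and 28.7 CPM to 4.18, 2.99 and 4.11 CPM (log2 fold change -2.75, SE 0.18, adjusted p 0.000783, edgeR). It was followed by *Acot4*, a peroxisomal thioesterase (log2 fold change -1.24), and *Acad11*, an acyl-CoA dehydrogenase (-0.98). *Scp2*, which holds a peroxisomal thiolase for branched chains, was at 768, 764 and 791 CPM against 490, 439 and 411 CPM (log2 fold change -0.79). *Hsd17b10*, a mitochondrial dehydrogenase that also acts on isoleucine (-0.78), and *Mcee*, of propionate breakdown (-0.64), fell too.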

How the data were processed

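For each library the authors deposited kallisto's estimated count and TPM of every transcript. The submitters' processing notes list kallisto 0.44.0 and the builds GRCm38.p6 and GRCh38.p12, with no role for each. For each symbol these counts were added up through GENCODE M21 (116816 of 118489 transcripts matched) and rounded. Genotypes were compared with the quasi-likelihood test of edgeR 4.0.16 after its default low-count filter and TMM scaling. Adjustment was by Benjamini-Hochberg over 16069 genes, and calls needed an adjusted p below 0.05. DESeq2 1.42.0 and limma 3.58.1 on log2(TPM + 1) and log2(TPM + 0.1) were alternatives, in R 4.3.3, with other scalings, filters, covariates and each library left out. kallisto divides reads among similar transcripts, so close paralogs are less certain. The study states that its mice of both genotypes were littermates, but nothing used here says which mice shared a litter. The p-values set the difference between the genotypes against the spread between the 3 mice of a genotype. edgeR estimates that spread for each gene with information shared across genes. Replicates differed by far more than sampling noise. The genes, roles and other lists were chosen with earlier results of these data known. All 33 genes are named, with every library's value for those called or apart by at least 0.5 on the log2 scale. Of each other list at most 6 called genes are named, by size. The procedure was also run on simulated counts, drawn independently for each gene and library. They lacked the differences between libraries that many genes shared here.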

Additional observations from a re-analysis of the deposited data

How the results depend on the processing

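The 17 alternatives gave 561 results for the 33 genes, of which 507 kept direction and side of the threshold, 24 lost the call, 8 gained it and 22 changed sign, all 22 in genes without a call. edgeR called 840 genes, and between 311 and 922 with 1 library left out. DESeq2 called 1813, limma without a filter 359 and the replicate block 370. The members called lower, 4, were 2 to 5 with 1 library left out and 2 by limma without a filter, and those called higher, 1, were 0 to 1, and 3 by DESeq2, 2 with total counts, 2 with the *Ucp1* level, 0 by limma without a filter and 0 with the block. Libraries with the same replicate number had correlations of 0.0662, 0.0278 and -0.201 in their deviations from the genotype means. With 3 mice a genotype these cannot show whether the numbers mark pairs, so the block rests on a number alone. The muscle share as covariate left 0 genes called, 0 members lower and 0 higher, with a median of 0.21 over the members. Signs changed with that covariate in *Etfb* (0.12) and *Ehhadh* (0.99), with *Ucp1* in *Cpt2* (-0.016) and *Decr1* (-0.072), and by limma on TPM in *Acox3* (0.030 in all 3 fits) and *Acot1* (0.042 with a pseudocount of 1, with and without the filter, and 0.043 with 0.1). With 1 library left out the log2 fold change ran from -0.20 to 0.034 in *Cpt1a*, -0.078 to 0.18 in *Cpt2*, -0.20 to 0.068 in *Acads*, -0.14 to 0.17 in *Decr1*, -0.0064 to 0.27 in *Etfa*, -0.22 to 0.054 in *Etfb*, -0.083 to 0.44 in *Etfdh* and -0.093 to 0.31 in *Abcd3*. The cause of these shifts was not tested. With 3 mice a genotype and an SE of up to 0.84 (*Cpt1b*), small differences in the mitochondrial genes could not be resolved.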

Other observations

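Among genes close to oxidation, single members were called. Of 5 ketone body genes, *Oxct1*, which begins ketone body use, fell from 224, 204 and 219 CPM in controls to 115, 120 and 126 CPM in Cebpa_ASKO (log2 fold change -0.84, SE 0.09, adjusted p 0.00378, edgeR, Benjamini-Hochberg), and the other 4 were not called by edgeR or DESeq2. Of 13 genes that regulate oxidation or respond to it, *Nr1h3*, which encodes the sterol receptor LXRα, fell from 73.3, 79.7 and 79.8 CPM to 32.2, 31.8 and 30.1 CPM (log2 fold change -1.31, SE 0.08, adjusted p 0.000724, edgeR), and the other 12 were not called by edgeR, while DESeq2 called 1 higher. The median log2 fold changes of both lists changed sign in some settings.

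Most *Acadsb* signal and most *Hadha* signal was not assigned to a coding transcript. A retained-intron transcript took 59.7% ± 2.9 (SD, n = 3) of the *Acadsb* TPM in controls and 57.9% ± 1.6 (SD, n = 3) in Cebpa_ASKO, so that the split changed little while the total fell. Of the *Hadha* TPM, a processed transcript not annotated as coding took 63.0% in controls and 64.2% in Cebpa_ASKO. The main coding transcript of *Hadha* took 25.3% and 26.4%. For *Abcd2* the coding transcript took 85.2% in controls and 83.5% in Cebpa_ASKO, and for *Pecr* 90.4% and 90.2%.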
